A study of Oryza sativa Indica Group with 27 samples.

Results

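In rice overexpressing OsERF71 (erf71), 88 of the 14828 genes with a mean of at least 5 FPKM (mapped fragments scaled to exon length and to library size) differed at least 2-fold from wild type (WT) in the same direction before dehydration and 1 and 6 h into it (0, 1, and 6 HAT, hours after treatment). Of these, 63 were higher in erf71 (0.425% of the genes tested), and 25 were lower (0.169%). The genes were selected on these measured values. They are the genes whose log2 ratio of erf71 to WT, after 0.1 FPKM was added to both values, was at least 1 at all 3 time points or at most -1 at all 3. The mean was taken over the 6 WT and erf71 libraries, and the table lists 37869 genes in all. The ratios that chose the genes are therefore given as a description, without a test.

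OsERF71 belongs to the AP2/ERF transcription factors, which bind DNA through the AP2 domain that gives the family its name. Many members of this plant family act in responses to ethylene, to water deficit, and to other stresses. Genes that differ between 2 plants already before a stress and still differ during it are distinct from those that differ only once water is withdrawn. Dehydration itself lowers many transcripts of growing tissue and raises transcripts for protection against water loss, so a lasting difference between plants is laid over large shifts with time.

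The groups were WT Nipponbare, the Nipponbare line that the sample labels call AP2 transgenic, and the cultivar Vandana, each at 0, 1, and 6 h, with 1 library per plant and time point. The AP2 transgenic line was taken as erf71 because the study describes OsERF71 as an AP2/ERF gene that it overexpressed in Nipponbare. In the study's methods, the WT and erf71 plants were at the 3-leaf stage, were grown in the same culture solution, and were harvested whole. The stress was the removal of that solution, with untreated plants as the 0 h control. The study gives no growth stage, culture, or harvest for Vandana. The labels give Indica Group as the organism for every sample, whereas the study describes Nipponbare as japonica rice. The promoter of the transgene, the number of independent lines, and the number of plants pooled per library are not given in the sources used here. No plant and time point had a replicate, so the differences below were not checked in a further sample, and they carry no p-value. The deposited values are FPKM without read counts, and the depth behind them is unknown. The 3 libraries of a plant are different time points and were not treated as replicates.

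In WT, OsERF71 (Os06g0194000) itself measured 133, 122, and 187 FPKM in order of time, against 201, 172, and 264 FPKM in the transgenic line. The transgenic line was higher at every time point, but by log2 ratios of only 0.59, 0.50, and 0.50, so OsERF71 did not reach the 2-fold limit and is not among the 88 genes. In Vandana, OsERF71 was at 138 and 159 FPKM in the libraries labelled 0 and 1 h and at 50.8 FPKM in that labelled 6 h. The dehydration marker Dip1 (Os02g0669100) went from 92.6 to 329 and 2583 FPKM in WT and from 86.8 to 317 and 3354 FPKM in erf71. Both Nipponbare series thus followed their time labels. In Vandana, Dip1 was 383 FPKM in the library labelled 0 h, 101 FPKM in that labelled 1 h, and 2275 FPKM in that labelled 6 h. Of 175 genes at least 4-fold higher at 1 than at 0 HAT in both WT and erf71, 164 were higher in the Vandana library labelled 0 h than in that labelled 1 h. Of 12 genes at least 4-fold lower at 1 HAT in both plants, 4 were higher in the Vandana library labelled 0 h. The first 2 Vandana libraries therefore go against their time labels. They are named by their labels throughout.

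The WT and erf71 plants were sampled whole, and in bulk RNA fewer cells of a type and less RNA per cell cannot be told apart. The 4 genes taken as leaf markers from the study and general knowledge (2 genes of the Rubisco small subunit, a chlorophyll-binding protein gene, and the gene of photosystem II reaction center W) summed to 17632, 14686, and 2912 FPKM in WT against 14141, 10825, and 1886 FPKM in erf71. Their summed level was lower in erf71 by log2 ratios of -0.32, -0.44, and -0.63. The 4 genes taken as root markers from general knowledge summed to 828, 178, and 112 FPKM in WT against 775, 396, and 76.3 FPKM in erf71. At 1 HAT the root sum was higher in erf71 (log2 ratio 1.15), while at 0 and 6 HAT it was lower (-0.10 and -0.55). All 4 root markers were higher in erf71 at 1 HAT, with log2 ratios of 2.16 (Os02g0745100), 3.85 (Os03g0107300), 0.30 (Os02g0662000), and 1.47 (Os03g0667500). At 0 and 6 HAT the root markers did not move together. The sum was mostly Os02g0662000 in WT at 1 HAT and in both plants at 6 HAT. Os02g0745100 and Os03g0107300 were higher in erf71 at 0 HAT (0.46 and 0.25) and at 6 HAT (1.65 and 0.55), whereas Os02g0662000 (-0.79 and -1.01) and Os03g0667500 (-0.40 and -2.65) were lower. None of these 8 marker genes is among the 88 selected genes, and the part of tissue proportions in the results was not tested. Of the root markers, Os03g0667500 was under 1 FPKM in WT at 1 and 6 HAT and in erf71 at 6 HAT, and the others were above 1 FPKM in every WT and erf71 library. The sum of all FPKM lay between 702034 and 857472 per library, and 7323 to 7916 genes were listed at 0 in a WT or erf71 library against 9101 to 12398 in a Vandana library.

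At each time point the median ratio was above the 2-fold limit in the higher genes and closer to it in the lower genes. The smallest of a gene's 3 ratios is the size kept at every time point. Its median was a log2 size of 1.33 in the higher genes and 1.18 in the lower genes, against the limit of 1. The median log2 ratio of the 63 higher genes was 1.65, 2.37, and 2.07 at 0, 1, and 6 HAT, against -0.03, 0.03, and 0.05 over all 14828 genes. Without the 7 higher genes listed at 0 in any of the 6 libraries, whose ratios depend on the added 0.1 FPKM, the medians of the other 56 were 1.58, 2.39, and 1.81. The 25 lower genes had medians of -1.37, -1.86, and -1.50. The difference was widest at 1 HAT in both directions: 33 of the 63 higher genes and 17 of the 25 lower genes had their largest ratio there. At 0 HAT it was largest for 12 higher and 6 lower genes, and at 6 HAT for 18 higher and 2 lower genes. How many of all genes tested had their largest ratio at 1 HAT was not counted. Among all genes tested, 97 higher and 69 lower genes passed the limit at 0 and 6 HAT. With 1 HAT in the pair, 142 and 116 passed at 0 and 1 HAT, and 203 and 134 at 1 and 6 HAT. At least a 4-fold difference at all 3 time points was found for 13 higher genes and for 0 lower genes.

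**Figure D1:**
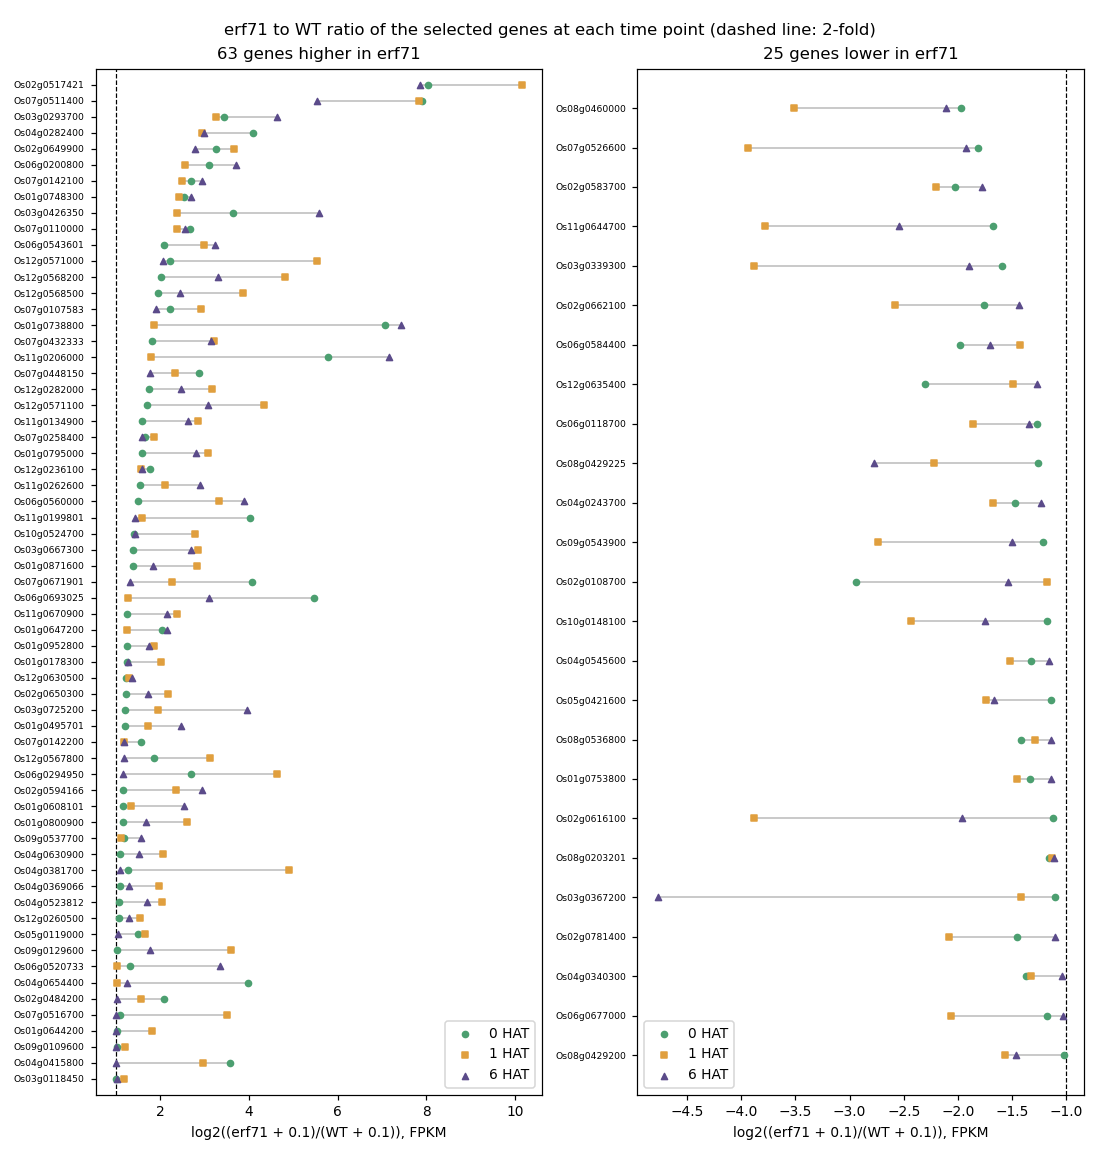
Log2 ratio of erf71 to WT (FPKM with 0.1 added) of each of the 63 higher genes (left) and 25 lower genes (right) at 0, 1, and 6 HAT, 1 point per pair of libraries, sorted by the smallest of the 3 ratios; the dashed lines mark a 2-fold difference. The squares for 1 HAT lie farthest from the dashed line for 33 higher and 17 lower genes, and the ratios of Os02g0517421, which was listed at 0 in WT, depend on the added 0.1 FPKM.

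The selected genes spanned a wide range of levels. The mean over the 6 WT and erf71 libraries ran from 5.17 to 7280 FPKM among the higher genes, with a median of 31.3 FPKM. It was at least 100 FPKM for 14 of them and at least 1000 FPKM for 3. Among the lower genes it ran from 5.17 to 350 FPKM, with a median of 15.2 FPKM, and only 1 gene reached 100 FPKM. The higher genes made up 1.79% of the summed FPKM of WT at 0 HAT, 0.670% at 1 HAT, and 0.372% at 6 HAT. In erf71 they made up 6.91%, 6.51%, and 1.54%. The lower genes made up 0.223%, 0.302%, and 0.0887% in WT and 0.0670%, 0.0533%, and 0.0278% in erf71. Much of the difference in these shares came from a few abundant genes on chromosome 12, described below.

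**Figure D2:**
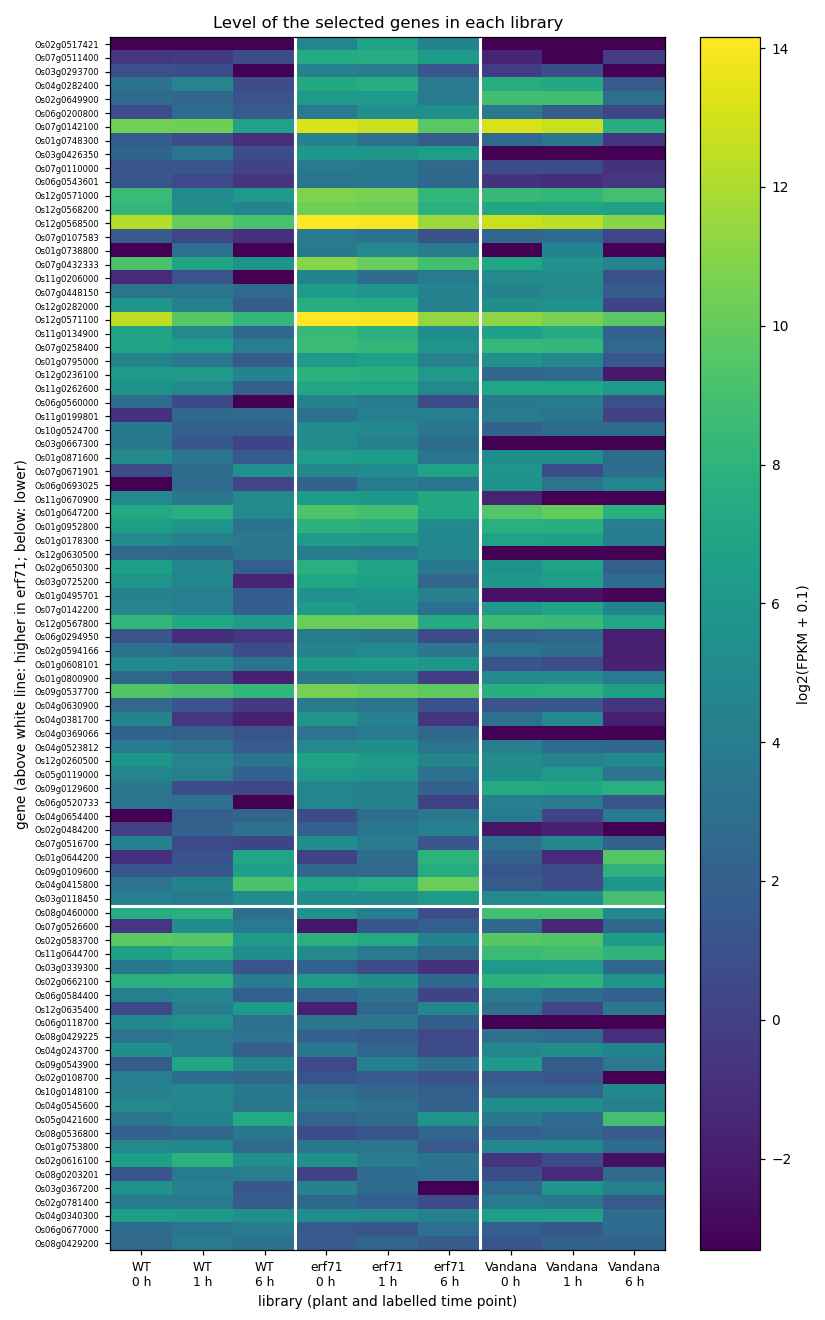
Level of each of the 88 genes, as log2(FPKM + 0.1), in the 9 libraries of WT, erf71, and Vandana; the horizontal white line separates the 63 higher from the 25 lower genes, and the vertical lines separate the plants. The brightest rows are 3 higher genes with means of at least 1000 FPKM, and the dark cells in the Vandana columns are genes listed at or near 0 there.

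In most of the selected genes the values of the 2 plants overlapped across time points. All 3 erf71 values lay above all 3 WT values in 18 of the 63 higher genes (2.37% of all genes tested). All 3 lay below in 6 of the 25 lower genes (1.12% of all genes tested). These counts come from the same values as the selection. The 6 lower genes were Os02g0108700, Os04g0340300, Os08g0429200, Os08g0429225, Os10g0148100, and Os11g0644700.

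A pair of genes was near absent from WT and well measured in erf71. Os02g0517421 was listed at 0 in all 3 WT libraries and in all 3 Vandana libraries. In erf71 it was 26.2, 113, and 23.2 FPKM at 0, 1, and 6 HAT, so that it was found in the transgenic line alone among the 9 libraries. The next listed gene, Os02g0517531, was 60.6, 51.3, and 47.8 FPKM in WT against 49.7, 48.8, and 49.6 FPKM in erf71, and showed no comparable difference. Os07g0511400 was 0.59, 0.68, and 1.46 FPKM in WT against 166, 179, and 72.6 FPKM in erf71. The log2 ratios were 7.91, 7.83, and 5.54, and those at 0 and 1 HAT were the largest of any selected gene measured above 0 in all 6 libraries. Its level in Vandana was 0.25, 0, and 0.72 FPKM, near that of WT. The gene listed just before it, Os07g0511301, was listed at 0 in WT and Vandana and in erf71 at 0 HAT, and was 10.1 and 11.5 FPKM in erf71 at 1 and 6 HAT. That gene fell short of the mean of 5 FPKM and of a difference at 0 HAT. The gene after it, Os07g0511500, was 2.78, 2.29, and 1.73 FPKM in WT against 2.11, 2.73, and 1.14 FPKM in erf71. Neither of the strongest differences extended to the measured gene that follows in the list. Genes listed before them were also at 0 in WT, at low levels in erf71. Os02g0517366, just before Os02g0517421, was 0.64, 0, and 1.15 FPKM in erf71 and 4.68 FPKM in the Vandana library labelled 6 h. Os07g0511100, listed shortly before Os07g0511400, was 0.12, 0.79, and 0.59 FPKM in erf71.

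Several genes of low to moderate level in WT were about 5-fold or more higher in erf71 at every time point. Os04g0282400 was 8.91, 24.7, and 1.67 FPKM in WT against 154, 191, and 14.0 FPKM in erf71 (log2 ratios 4.10, 2.95, and 3.0). Its level in the transgenic line at 6 HAT thus lay between those of WT at 0 and 1 HAT. Os06g0200800 was 1.68, 7.06, and 3.24 FPKM in WT against 15.3, 41.9, and 43.4 FPKM in erf71 (3.11, 2.55, and 3.70). This gene was higher after dehydration than before it in both plants, and its lowest erf71 value was above its highest WT value. Os03g0426350 was 4.95, 11.4, and 1.70 FPKM in WT against 62.8, 60.3, and 86.3 FPKM in erf71 (3.64, 2.39, and 5.59). In erf71 it was highest at 6 HAT, where WT was lowest, and it was listed at 0 in all 3 Vandana libraries. Os03g0293700 was 1.82 and 1.63 FPKM in WT against 20.7 and 16.5 FPKM in erf71 at 0 and 1 HAT. At 6 HAT it was listed at 0 in WT and was 2.37 FPKM in erf71.

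A further 3 of the 12 strongest higher genes were weakly expressed. Os01g0748300 was 3.50, 1.54, and 0.42 FPKM in WT against 20.9, 8.66, and 3.27 FPKM in erf71 (log2 ratios 2.55, 2.42, and 2.70). With 1 FPKM added in place of 0.1 FPKM, its ratios were 2.28, 1.93, and 1.59, so their course depends on the added value. Os07g0110000 was 2.18, 2.42, and 1.03 FPKM in WT against 14.4, 12.9, and 6.51 FPKM in erf71 (2.67, 2.37, and 2.55). The lowest erf71 value of that gene exceeded its highest WT value. Os06g0543601 was 2.52, 1.36, and 0.50 FPKM in WT against 11.0, 11.5, and 5.65 FPKM in erf71 (2.08, 3.0, and 3.25), again without overlap between the plants, and with the smallest ratio before dehydration. With 1 FPKM added, the ratio at 6 HAT was 1.89 for Os07g0110000 and 2.14 for Os06g0543601.

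Among abundant genes, Os07g0142100 was 1395, 1260, and 107 FPKM in WT against 9006, 7065, and 829 FPKM in erf71, with log2 ratios of 2.69, 2.49, and 2.95. Both plants were far lower at 6 HAT, and the ratio stayed near that before dehydration. In Vandana it was 8788, 7064, and 191 FPKM. The first 2 Vandana values lay within 2-fold of erf71, and that labelled 6 h lay within 2-fold of WT. Os09g0537700 was 673, 534, and 305 FPKM in WT against 1523, 1167, and 909 FPKM in erf71 (1.18, 1.13, and 1.57). Its 3 erf71 values were all above the highest WT value. Os07g0432333 was 595, 117, and 51.7 FPKM in WT against 2086, 1087, and 458 FPKM in erf71 (1.81, 3.22, and 3.14), and its level in WT at 0 HAT was above that of erf71 at 6 HAT.

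The largest group of neighbours among the higher genes lay on chromosome 12. The gene IDs give the chromosome and a number that follows the order along it, and the table was read in that order. Between Os12g0567800 and Os12g0571100 the table lists 25 genes, of which 15 had a mean of at least 5 FPKM and 5 were selected, all higher in erf71. They form a run of 3 selected genes among 6 listed genes (Os12g0567800, Os12g0568200, and Os12g0568500) and an adjacent pair (Os12g0571000 and Os12g0571100). The study lists Os12g0567800 in a network module as a gene that does not code for a transcription factor.

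Os12g0568500 was 4704, 1093, and 566 FPKM in WT against 18272, 15969, and 3074 FPKM in erf71, the highest mean of all selected genes. Os12g0571100 was 5402, 803, and 309 FPKM in WT against 17667, 16254, and 2606 FPKM in erf71. Both genes held their level from 0 to 1 HAT in erf71 and were several-fold lower at 1 HAT in WT. Os12g0571000 was 379, 32.2, and 71.2 FPKM in WT against 1766, 1489, and 299 FPKM in erf71. Os12g0568200 was 310, 41.8, and 23.7 FPKM in WT against 1259, 1181, and 234 FPKM in erf71. Os12g0567800 was 312, 140, and 76.4 FPKM in WT against 1132, 1224, and 173 FPKM in erf71. In these 3 genes too, WT was lower at 1 than at 0 HAT. The WT value of Os12g0571000 was higher again at 6 HAT, and that of Os12g0567800 was the least reduced at 1 HAT.

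Before dehydration the log2 ratios of the 5 genes lay between 1.71 (Os12g0571100) and 2.22 (Os12g0571000). At 1 HAT they lay between 3.12 (Os12g0567800) and 5.53 (Os12g0571000), and at 6 HAT between 1.18 (Os12g0567800) and 3.30 (Os12g0568200). From 0 to 1 HAT the log2 change in WT was between -1.15 and -3.55, whereas in erf71 it was between -0.25 and 0.11. From 0 to 6 HAT it was between -2.03 and -4.13 in WT and between -2.43 and -2.76 in erf71. The wide ratio at 1 HAT thus went with lower values in WT, while the erf71 values stayed near those at 0 HAT. The genes taken as root markers also had lower values at 1 HAT in WT, with log2 changes from -1.43 to -4.58, and in erf71 their changes were from -0.34 to -1.76. The part of the root share in the course of the 5 genes was not tested.

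Most other genes of at least 5 FPKM in the same stretch did not share the difference. Of the 10 other genes with a mean of at least 5 FPKM, 1 was at least 2-fold higher at 2 time points or more. This gene, Os12g0570700, was 1212, 603, and 3283 FPKM in WT against 4140, 4139, and 5540 FPKM in erf71 (1.77, 2.78, and 0.75), so that it missed the limit at 6 HAT alone. A pair of genes inside the run was higher in erf71 at all 3 time points but below the limit on the mean. Os12g0568350 was at 1.40, 0.19, and 0.13 FPKM in WT and at 7.04, 3.96, and 0.62 FPKM in the transgenic line (2.25, 3.80, and 1.68). Os12g0568166, at most 0.76 FPKM in any of these libraries, had ratios of 1.47, 3.11, and 1.36. Between the pair and the run, Os12g0568800 was 28.8, 25.4, and 34.9 FPKM in WT against 29.4, 29.4, and 40.3 FPKM in erf71. The gene just before the run, Os12g0567700, had log2 ratios of -0.22, 0.28, and 0.20, and that just after the pair, Os12g0571200, had 0.76, 0.51, and 0.25. Reads shared by near copies or overlapping genes cannot be told from FPKM values, so the 5 levels are uncertain where the genes resemble each other.

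**Figure D3:**
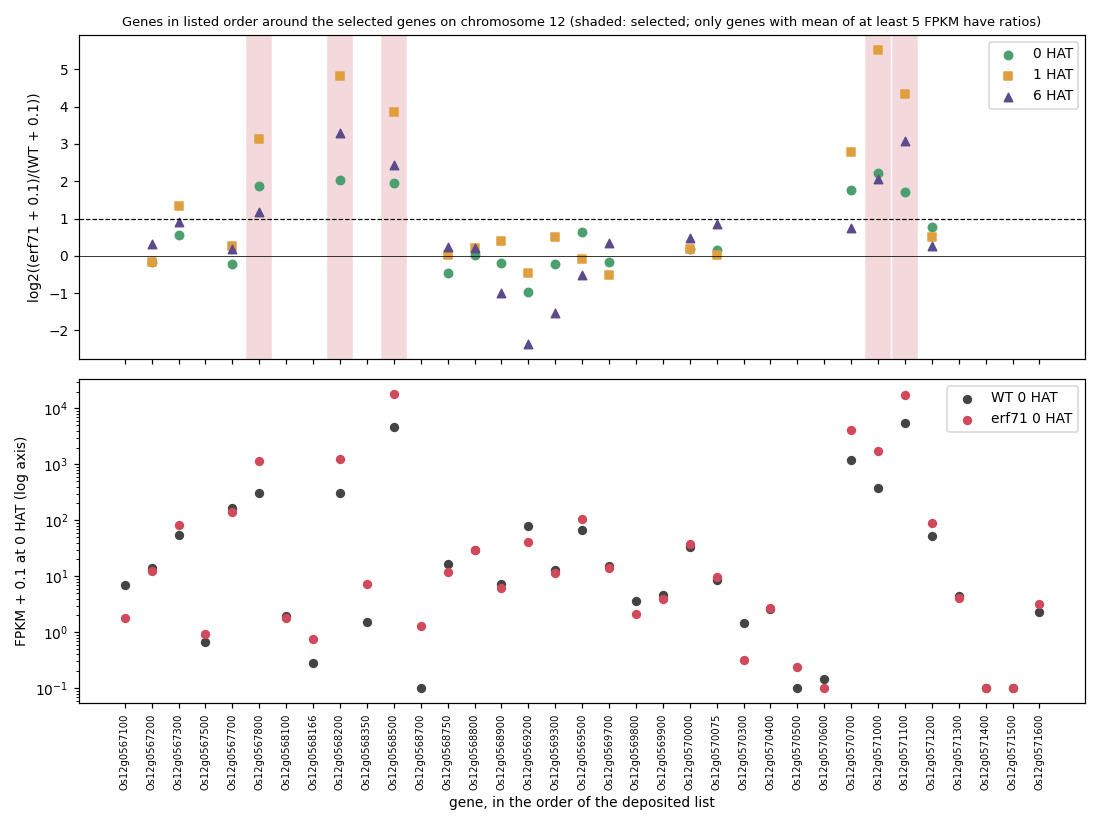
Upper panel: log2 ratio of erf71 to WT at 0, 1, and 6 HAT for genes with a mean of at least 5 FPKM around the 5 selected genes on chromosome 12, in the order of the list and not to genomic scale. Lower panel: FPKM + 0.1 (log axis) of every listed gene at 0 HAT in both plants, with the 5 selected genes shaded above; these 5 and Os12g0570700 stand above their neighbours, most of which lie near a ratio of 0.

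Together the 5 genes made up 1.32%, 0.286%, and 0.149% of the summed FPKM in WT and 4.85%, 4.76%, and 0.852% in erf71. In Vandana their share was 1.22%, 0.957%, and 0.423%. The share in the Vandana library labelled 0 h was thus close to that of WT before dehydration. Those labelled 1 and 6 h were between the WT and erf71 values of the same labelled hour. The first 2 Vandana libraries go against their time labels. With both exchanged, 0.957% in place of 1.22% would be set against the 1.32% of WT at 0 HAT.

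**Figure D4:**
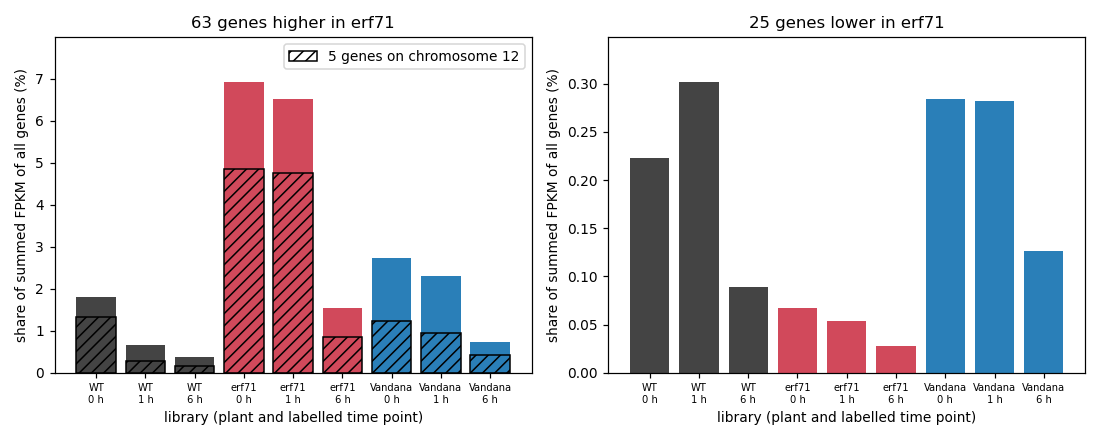
Share of the summed FPKM of all listed genes taken by the 63 higher genes (left; hatched, the 5 genes on chromosome 12) and by the 25 lower genes (right), 1 bar per library and on different vertical scales. The higher genes reach 6.91% in erf71 at 0 HAT against 1.79% in WT, and the lower genes 0.0670% against 0.223%.

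Besides the run and the pair on chromosome 12, 3 adjacent pairs were found. Os07g0142100, described above, is followed by Os07g0142200, which was 27.2, 20.4, and 3.62 FPKM in WT against 81.4, 46.7, and 8.32 FPKM in erf71 (log2 ratios 1.58, 1.19, and 1.18). Os02g0649900 was 6.84, 5.36, and 2.14 FPKM in WT against 66.6, 69.5, and 15.3 FPKM in erf71 (3.27, 3.67, and 2.78). Its neighbour Os02g0650300 was 94.9, 25.1, and 3.90 FPKM in WT against 224, 115, and 13.1 FPKM in erf71 (1.24, 2.19, and 1.72). In both pairs the first gene had the larger ratio at every time point. In Vandana, Os02g0649900 was 473, 465, and 8.53 FPKM, above erf71 in the first 2 libraries. The only pair of lower genes was Os08g0429200 and Os08g0429225. The first was 6.40, 15.4, and 8.94 FPKM in WT against 3.10, 5.12, and 3.19 FPKM in erf71 (-1.02, -1.57, and -1.46), and the second was 10.7, 15.4, and 9.83 FPKM in WT against 4.43, 3.23, and 1.35 FPKM in erf71 (-1.26, -2.22, and -2.77). In each of them the highest erf71 value was below the lowest WT value. The pair rests on a ratio near the limit, that of Os08g0429200 at 0 HAT. This ratio was -0.85 with 1 FPKM added, and -0.962, -0.982, and -0.997 after scaling by upper quartile, median ratio, and equal sum. The pair would not be found in any of these settings.

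In all, 11 of the 88 genes (12.5%) had another selected gene within 5 listed genes, 9 of them higher and 2 lower, beside 1.99% of all genes tested with a selected gene in that reach. Medians of neighbours were taken without the selected genes, so ratios smaller than those of the selected genes follow largely from the selection. Unselected genes within 5 places of a higher gene (n = 204) had median log2 ratios of -0.01, 0.12, and 0.14, and those directly beside one (n = 42) had 0.08, 0.39, and 0.32, against -0.03, 0.03, and 0.05 over all genes tested. Beside the lower genes, the 80 genes within 5 places had medians of -0.03, -0.02, and 0.08. By chromosome, the higher genes were most frequent on chromosome 12, with 9 of 749 tested genes (1.20%), and on chromosome 7, with 10 of 1096 (0.912%). Chromosome 8 had 0 higher genes of 968 tested and 5 of the 25 lower genes (0.517%). OsERF71 on chromosome 6 had no selected gene among the 3 listed genes on either side.

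IDs of the Rice Annotation Project were first numbered in round steps, and those whose last digits are not 00 lie between the steps. Such IDs were carried by 17 of the 63 higher genes (27.0%) and 2 of the 25 lower genes, beside 6.18% of all genes tested. Os02g0517421, Os03g0426350, and Os06g0543601 among the 12 strongest higher genes were of this kind. Descriptions of the selected genes were not used here, and roles are given only where the study names a gene.

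The lower genes stood farthest below WT at 1 HAT. Os02g0583700, the most abundant of them, was 878, 745, and 77.2 FPKM in WT against 216, 162, and 22.5 FPKM in erf71. The log2 ratios of -2.03, -2.20, and -1.77 were nearly even, and the gene was lower at each later time point in both plants. Os08g0460000 was 184, 214, and 7.57 FPKM in WT against 47.0, 18.6, and 1.68 FPKM in erf71 (-1.97, -3.51, and -2.11). Its smallest difference was the largest of any lower gene. Os02g0662100 was 222, 244, and 16.1 FPKM in WT against 65.4, 40.7, and 5.91 FPKM in erf71 (-1.76, -2.58, and -1.43). The gene listed just before it, Os02g0662000, one of the genes taken as root markers, was 403, 149, and 101 FPKM in WT against 233, 184, and 50.1 FPKM in erf71, and was not lower at 1 HAT.

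Os11g0644700 and Os02g0616100 took opposite courses in the 2 plants within the first hour. Os11g0644700 was 95.7, 192, and 38.0 FPKM in WT against 29.9, 13.9, and 6.44 FPKM in erf71 (-1.67, -3.78, and -2.54). It was above its starting level at 1 HAT in WT and below it in erf71, and the plants did not overlap. Os02g0616100 was 94.0, 243, and 42.0 FPKM in WT against 43.2, 16.4, and 10.7 FPKM in erf71 (-1.12, -3.88, and -1.96). It was also higher at 1 than at 0 HAT in WT only. Os03g0339300, at a lower level, was 13.2, 23.6, and 2.09 FPKM in WT against 4.30, 1.50, and 0.49 FPKM in erf71 (-1.60, -3.88, and -1.90). The study lists Os03g0339300 and Os08g0460000 as genes that do not code for transcription factors, in no module.

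Some lower genes were low before the stress and higher afterwards in both plants. Os12g0635400 was 1.35, 17.0, and 69.2 FPKM in WT against 0.19, 5.97, and 28.7 FPKM in erf71 (-2.30, -1.49, and -1.27). Os07g0526600 was 0.59, 38.7, and 15.1 FPKM in WT against 0.10, 2.44, and 3.89 FPKM in erf71 (-1.81, -3.94, and -1.93). Os09g0543900 was 3.40, 132, and 25.6 FPKM in WT against 1.41, 19.7, and 8.98 FPKM in erf71 (-1.22, -2.74, and -1.50). All 3 were higher at 1 and at 6 HAT than at 0 HAT in both plants. From 1 to 6 HAT, Os07g0526600 was lower in WT and higher in erf71. With 1 FPKM added in place of 0.1 FPKM, the log2 ratio at 0 HAT was -0.54 for Os07g0526600, -0.87 for Os09g0543900, and -0.98 for Os12g0635400. None of these 3 genes would then be selected. Of the rest among the 12 with the largest smallest difference, Os06g0584400 and Os04g0243700 were lower in both plants at 6 than at 0 HAT. With 1 FPKM added, the log2 ratio of Os04g0243700 at 6 HAT was -0.89, so that gene would not be selected either. Os06g0118700 was 28.8, 44.6, and 8.77 FPKM in WT against 11.9, 12.2, and 3.40 FPKM in erf71 and was listed at 0 in all 3 Vandana libraries.

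**Figure D5:**
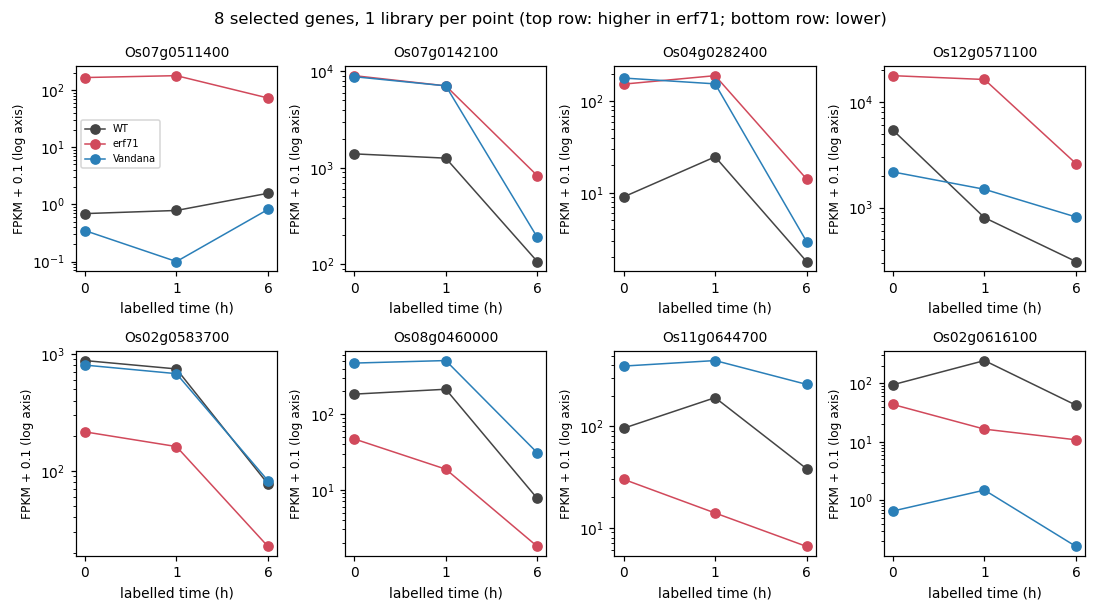
FPKM + 0.1 (log axis) of 4 higher genes (top) and 4 lower genes (bottom) in WT, erf71, and Vandana against the labelled time (0, 1, and 6 h, evenly spaced), 1 library per point. Os07g0511400 lies between 0 and 1.46 FPKM in WT and Vandana, Os07g0142100 and Os04g0282400 start near erf71 in Vandana, and Os11g0644700 and Os02g0616100 have their highest WT value at 1 HAT while erf71 is lower there than at 0 HAT.

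Most of the selected genes differed between time points, as did many others. From 0 to 6 HAT, 47 of the 63 higher and 15 of the 25 lower genes were at least 2-fold lower in WT (30.6% of all genes tested), and 42 and 15 were so in erf71 (28.4%). At least 2-fold higher at 6 HAT were 9 higher and 7 lower genes in WT (15% of all genes tested) and 9 and 7 in erf71 (15.4%). In both plants at once, 40 higher and 13 lower genes were at least 2-fold lower at 6 HAT (23.4% of all genes tested), and 7 higher and 7 lower genes were at least 2-fold higher (12.3%). For the higher genes the latter is a share near that of all genes. For the higher genes the median log2 change to 6 HAT came to -2.35 (WT) and -2.13 (erf71), and for the lower genes to -1.33 and -1.64. Over all genes tested it was -0.43 and -0.36.

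Within the first hour the plants differed more. Of the higher genes, 24 were at least 2-fold lower at 1 than at 0 HAT in WT (8.09% of all genes tested), and 4 were so in erf71 (2.27%). The same numbers for the lower genes were 3 and 6. At least 2-fold higher at 1 HAT were 12 higher and 8 lower genes in WT (9.34% of all genes tested) and 7 and 4 in erf71 (4.93%). In WT and not in erf71, 21 of the higher genes and 1 of the lower genes were at least 2-fold lower at 1 HAT (7.18% of all genes tested). Those 21 include all 5 selected genes of the stretch on chromosome 12. The median log2 change to 1 HAT came to -0.52 (WT) and -0.15 (erf71) for the higher genes, to 0.52 and -0.25 for the lower genes, and to -0.17 and -0.10 for all genes tested. These changes use the same libraries as the selection, which favours genes whose ratio is wide at every time point, so they describe the genes and are no separate test of them.

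Genes of the higher group that were induced by dehydration included Os01g0644200, at 0.41, 2.05, and 125 FPKM in WT against 0.95, 7.46, and 253 FPKM in erf71. Os09g0109600 was 2.56, 2.62, and 91.1 FPKM in WT against 5.35, 6.20, and 184 FPKM in erf71. Os04g0415800 was 10.2, 23.7, and 558 FPKM in WT against 122, 187, and 1124 FPKM in erf71. All 3 were highest at 6 HAT in both plants, and Os04g0415800 was already more than 10-fold higher in erf71 before the stress. Os01g0644200 and Os09g0109600 were chosen for mention after their values were seen.

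Vandana was not used to select the genes, and its levels show how far the difference between WT and erf71 compares with the difference to another cultivar. The Vandana comparison with WT shares the WT libraries with the selection, so the levels are set side by side. The median over the 63 higher genes of the mean level was 11.7 FPKM in WT, 53.2 FPKM in erf71, and 20.5 FPKM in Vandana. For the 25 lower genes it was 21.9, 8.44, and 13.0 FPKM. In either group the Vandana median lay between those of both Nipponbare plants. The selection itself sets the WT and erf71 medians apart, so a place between them says little about Vandana.

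The levels in Vandana were then set against each Nipponbare plant at the labelled hour. In the libraries labelled 0, 1, and 6 h, 24, 13, and 20 of the higher genes were within 2-fold of WT, and so were 13, 7, and 6 of the lower genes. Of all genes tested, 75.7%, 75%, and 32.8% were within 2-fold of WT. Within 2-fold of erf71 were 19, 22, and 18 of the higher genes and 6, 6, and 7 of the lower genes, where all genes tested gave 75.2%, 74.2%, and 31.6%. In the library labelled 0 h, Vandana was above both Nipponbare plants for 12 higher and 9 lower genes (38.8% of all genes tested) and below both for 28 higher and 5 lower genes (44.5%). In that labelled 6 h, it was above both for 17 higher and 12 lower genes (23.9%) and below both for 27 and 9 (69.8%). Vandana thus lay outside the range of WT and erf71 for most of the higher and lower genes in both libraries. The same held for a larger share of all genes tested, so it is no trait of the selected genes. The selection itself asks for a wide gap between WT and erf71.

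Among the higher genes, 10 were under 1 FPKM in all 3 Vandana libraries, as was 1 lower gene (3.92% of all genes tested). Of these, Os02g0517421, Os03g0426350, Os03g0667300, Os04g0369066, and Os12g0630500 in the higher group and Os06g0118700 in the lower group were listed at 0 in all 3. The other 5 were Os01g0495701, Os02g0484200, Os06g0543601, Os07g0511400, and Os11g0670900. Os12g0630500 was 6.65, 5.49, and 10.6 FPKM in WT against 15.8, 13.7, and 27.6 FPKM in erf71. Os11g0670900 was 30.9, 12.2, and 32.5 FPKM in WT against 74.5, 64.3, and 146 FPKM in erf71, and at most 0.22 FPKM in Vandana. Both genes were thus measured in every Nipponbare library and listed at or near 0 in Vandana. A listed value near 0 can mean little transcript or reads that do not match the reference genome. These were not told apart for Vandana. At least 5 FPKM in at least 1 Vandana library was found for 49 higher and 21 lower genes. The share of all genes tested that reached this level in Vandana was not counted, so these counts are given without a comparison.

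Vandana exceeded both Nipponbare plants in several lower genes. Os08g0460000 was 475, 512, and 30.7 FPKM in Vandana, above the 184, 214, and 7.57 FPKM of WT. Os11g0644700 was 393, 446, and 259 FPKM there, and Os03g0339300 was 71.0, 73.2, and 5.65 FPKM. Os02g0583700, at 804, 679, and 82.4 FPKM, was close to WT at every labelled time. Os02g0616100 went the other way, with 0.56, 1.40, and 0.06 FPKM in Vandana, below erf71. Among abundant higher genes, Os12g0568500 was 6910, 5569, and 2096 FPKM and Os12g0571100 was 2172, 1489, and 815 FPKM in Vandana. In both of these the Vandana library labelled 6 h was above the WT library and below the erf71 library of that hour.

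At the 2-fold limit the values of selected and unselected genes were alike. The higher genes nearest to the limit were Os03g0118450 and Os04g0415800, each with a smallest log2 ratio of 1.01. Just outside were Os06g0215900, at 0.995, and Os10g0442400, at 0.993. Of the lower genes, Os08g0429200 (-1.02) and Os06g0677000 (-1.03) were nearest inside, and Os12g0516000 and Os04g0354600 were nearest outside with -0.966 and -0.964. At the limit on the mean, Os07g0107583 and Os08g0536800 were inside with 5.17 FPKM each, and Os03g0371000 and Os05g0536250 were outside the limit with 4.997 and 4.969 FPKM.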

How the data were processed

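The authors clipped adapters, mapped reads to IRGSP-1.0 with TopHat2, and deposited Cufflinks gene levels in FPKM (mapped fragments scaled to exon length and library size) for genes of the Rice Annotation Project. CASAVA 1.8.2, Bowtie, and the build come from the submitters' processing notes. Columns name plant and hour, not the kind of library. They were taken as mRNA libraries because the riboZ and small RNA labels carry a mark that the columns lack. The lincRNA and miRNA tables hold other features and were not used.

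Log2 ratios were computed with Python 3.11.15, numpy 2.4.6, and pandas 2.3.3 after 0.1 FPKM was added, among genes with a mean of at least 5 FPKM over the WT and erf71 libraries. Figures used matplotlib 3.10.9. With 1 library per condition no test was run. The members and lists were chosen with earlier results of these data known. Named genes are OsERF71; per direction the 12 with the largest smallest ratio, the 5 with the highest mean, and the 2 nearest each side of the limit; members of runs; the 3 highest in Vandana; and those the study lists. Others were named after their values were seen. Counts by annotation class and promoter motif and any sequences are left out, since no table used here pairs these IDs with them. The selection was tested on simulated data: it found 196 of 200 genes that were given a 4-fold difference and a log2 error of SD 0.1, among 14912 genes in all, and called 0 others; this error is far below the limit, so this covers the computation only. Alternatives were other pseudocounts, filters, fold limits, scalings, time points, and reaches.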

Additional observations from a re-analysis of the deposited data

Results flagged for a closer look

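Among the selected genes, 4 were at least 2-fold higher than at 0 HAT in one plant and at least 2-fold lower in the other over the same period. The share of all genes tested with such opposite changes was not counted, so whether the selected genes stand out in this is unknown. The difference between the plants was not tested, since each plant and time point had 1 library. Os02g0616100 had a log2 change from 0 to 1 HAT of 1.37 (WT) and -1.40 (erf71), a difference of -2.77. Os11g0644700 changed by 1.00 (WT) and -1.10 (erf71) over the same hour, a difference of -2.11. Os11g0206000 changed by 2.36 (WT) and -1.62 (erf71) in that hour (difference -3.98), but its WT level was 0.33 FPKM at 0 HAT and 2.09 FPKM at 1 HAT. Os07g0511400 changed by 1.18 (WT) and -1.19 (erf71) from 0 to 6 HAT (difference -2.37), with WT values from 0.59 to 1.46 FPKM.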

How the results depend on the processing

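The counts moved with the limits of the selection, while no value changed direction. A mean of at least 1 FPKM gave 131 higher and 76 lower genes, with 26 near another, and no filter gave 214, 160, and 56. A 4-fold limit gave 13, 0, and 0. A pseudocount of 1 left 49 higher and 15 lower genes, with 9 near another in place of 11. Using 0 and 1 h only gave 142 and 116 genes, with 41 near another, 0 and 6 h only gave 97 and 69, and 1 and 6 h only gave 203, 134, and 73. More genes enter without the filter or with fewer time points, and fewer under a 4-fold limit, by construction. Scalings by upper quartile, median ratio, or equal sum gave 55 to 59 higher and 26 or 27 lower genes, sharing 53 to 56 and 24 with those described. Each of these scalings left 9 genes near another. The scalings shifted the median ratio of all genes by at most 0.09 (log2). Of the ratios of named genes under the alternatives, 487 moved little and 17 moved by more, and of the counts of time changes 72 and 8. Exchanging the first 2 Vandana libraries, chosen after the data were seen, gave 37 and 23 genes within 2-fold of WT in place of 37 and 20, and 27 and 28 within 2-fold of erf71 in place of 25 and 28. Alternatives for promoter motifs were not run. Depth is unknown, so the error of a single value, largest for low levels, could not be given.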
